A study of Mus musculus with 8 samples.

Results

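Interferon response genes are the genes that a cell transcribes once it has sensed an interferon, together here with the receptor chains that do the sensing. A list of 59 gene names was followed through the data, and 58 of the names matched a gene in the deposited transcript tables, which hold 55487 genes in all. The entry Lgals3bp_none matched none. Each gene's level is the sum over its transcripts in TPM, the share of a library's transcripts after scaling by length. A level of at least 1 TPM in at least 2 libraries was reached by 47 of the 58 genes, and these 47 were tested among 12511 genes that reached it.

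RNA was sequenced from 2 bone marrow populations of C57BL/6J mice, called pre-Baso and Basophil in the labels, in 2 genotypes with 2 libraries in each of the 4 groups. Both populations were sorted as lineage-negative cells without CD34 or ckit and with CD200R3, an activating receptor of basophils; pre-Baso had high and basophils intermediate staining with MAR1, an antibody to the alpha chain of the IgE receptor. Control mice (ctrl in the labels) were wild type littermates, and in the others, labelled floxed out and Nfil3-depleted and called Nfil3-deficient here, a floxed Nfil3 gene had been removed. Nfil3 encodes a basic leucine zipper transcription factor. The driver of the recombinase, the age and sex of the mice and any pooling of animals were not given in the sources used here, and the labels name no treatment for any group.

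Type I interferons bind a receptor made of Ifnar1 and Ifnar2, and interferon gamma binds Ifngr1 and Ifngr2. Kinases of the Jak family then activate STAT factors. Complexes with Stat2 and Irf9 bind interferon response elements built from GAAA repeats, while STAT dimers bind a palindrome with TTC and GAA arms. The genes switched on include restriction factors that act on viral entry, nucleotides, RNA and protein, and many of them also have a basal level in uninfected leukocytes that differs between cell types.

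The promoters of the 4 Ifitm genes on chromosome 7, of the schlafen gene Slfn2, of Samhd1 and of Isg15 are shown because Samhd1, Slfn2 and Ifitm1 had the largest changes described below, the other Ifitm genes are neighbours of Ifitm1, and Isg15 holds the densest run of motif matches among these genes. RefSeq promoters (build GRCm38.p6) run from 250 bases before to 50 bases after the start that RefSeq gives and are printed on the gene's own strand, 5′ to 3′. Capitals mark the interferon response core GAAANNGAAA and the STAT core TTCNNNGAA, searched on both strands. The windows are chr7:140955912-140956211 (minus strand) for Ifitm2, chr7:140967826-140968125 (plus) for Ifitm1, chr7:141010695-141010994 (minus) for Ifitm3, chr7:141016843-141017142 (minus) for Ifitm6, chr11:83064862-83065161 (plus) for Slfn2, chr2:157135047-157135346 (minus) for Samhd1 and chr4:156200769-156201068 (minus) for Isg15.
Ifitm2: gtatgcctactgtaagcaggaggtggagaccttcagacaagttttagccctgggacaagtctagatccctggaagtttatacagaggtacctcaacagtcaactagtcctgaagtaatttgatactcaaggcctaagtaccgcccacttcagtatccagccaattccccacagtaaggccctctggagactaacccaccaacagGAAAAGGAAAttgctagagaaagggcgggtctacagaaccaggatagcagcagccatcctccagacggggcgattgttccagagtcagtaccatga
Ifitm1: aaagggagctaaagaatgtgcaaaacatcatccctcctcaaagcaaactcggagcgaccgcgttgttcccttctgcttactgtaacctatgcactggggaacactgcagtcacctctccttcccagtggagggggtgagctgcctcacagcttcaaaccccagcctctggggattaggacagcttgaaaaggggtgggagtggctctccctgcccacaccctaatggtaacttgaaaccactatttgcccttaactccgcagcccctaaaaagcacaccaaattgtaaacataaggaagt
Ifitm3: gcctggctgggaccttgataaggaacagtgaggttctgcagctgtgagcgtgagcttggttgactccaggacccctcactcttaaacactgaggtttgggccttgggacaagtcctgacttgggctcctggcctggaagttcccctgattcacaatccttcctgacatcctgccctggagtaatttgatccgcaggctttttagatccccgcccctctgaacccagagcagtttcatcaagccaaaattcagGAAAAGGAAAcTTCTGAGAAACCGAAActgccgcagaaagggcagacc
Ifitm6: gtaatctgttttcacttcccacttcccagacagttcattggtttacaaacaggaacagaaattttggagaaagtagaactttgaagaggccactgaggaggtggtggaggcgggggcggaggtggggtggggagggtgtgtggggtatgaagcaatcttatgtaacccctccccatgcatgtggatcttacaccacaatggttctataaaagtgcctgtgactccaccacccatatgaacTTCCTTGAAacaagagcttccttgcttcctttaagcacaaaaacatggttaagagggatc
Slfn2: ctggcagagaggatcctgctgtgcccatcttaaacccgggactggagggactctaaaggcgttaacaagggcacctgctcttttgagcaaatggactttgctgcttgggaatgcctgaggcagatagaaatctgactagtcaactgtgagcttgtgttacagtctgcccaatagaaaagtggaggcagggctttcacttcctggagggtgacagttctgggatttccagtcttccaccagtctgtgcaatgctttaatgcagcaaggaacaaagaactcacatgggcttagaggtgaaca
Samhd1: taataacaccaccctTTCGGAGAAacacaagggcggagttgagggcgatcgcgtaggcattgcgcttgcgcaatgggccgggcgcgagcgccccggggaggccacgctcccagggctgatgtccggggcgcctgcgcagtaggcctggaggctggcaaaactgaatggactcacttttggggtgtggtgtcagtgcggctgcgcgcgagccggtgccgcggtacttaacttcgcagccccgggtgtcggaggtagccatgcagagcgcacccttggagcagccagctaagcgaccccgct
Isg15: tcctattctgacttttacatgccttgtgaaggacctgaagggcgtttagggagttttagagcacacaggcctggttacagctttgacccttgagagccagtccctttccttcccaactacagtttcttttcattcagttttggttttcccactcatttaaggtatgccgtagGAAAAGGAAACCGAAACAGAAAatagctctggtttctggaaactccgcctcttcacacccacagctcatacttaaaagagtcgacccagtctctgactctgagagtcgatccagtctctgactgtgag

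Isg15 held 3 overlapping interferon cores, the first of them starting 78 bases before the gene's start (position -78). Ifitm3 held 2 interferon cores just after its start, the second overlapping a STAT core, and Ifitm2 held 1 interferon core at position -46. Ifitm6 held a STAT core at position -10 and Samhd1 one at position -235. The windows of Ifitm1 and Slfn2 held neither motif. The RefSeq start lies 855 bases inside the outermost start of the deposited annotation for Ifitm1 and 1032 bases inside it for Ifitm6, so bases before those outer starts were not searched. Promoters were found for 47 of the 58 genes, 8 of which had more than 1, which gave 57 promoters. An interferon core stood in 23 of these 57 promoters (40.4%), against 3.44% of all 32851 promoters of this length in the table, and a STAT core in 16 of them (28.1%), against 8.3%. An interferon core stood at 38.9% of the 18 genes with a promoter that passed the test between populations in either genotype, at 45.5% of the 22 tested genes that did not, and at 57.1% of the 7 genes too low to be tested. The windows of Psmb9 and Tap1, which are transcribed in opposite directions, shared 275 bases. A match is only a match of letters.

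Libraries held 272 to 398 assigned megabases, and replicates correlated at 0.962 to 0.979 across genes on the log2(TPM + 1) scale. Protein-coding genes took 18.7% to 22.4% of TPM because annotated microRNA genes took 57.4% to 62.8%, so 1 TPM stands for more of the messenger RNA than it would without them. Nfil3 stood at 6.61 and 7.65 TPM in control pre-Baso, at 0 and 0.624 in deficient pre-Baso, at 20.5 and 22.5 in control basophils and at 0.853 and 1.32 in deficient basophils, as labelled. The defining basophil markers were present in every library except that Mcpt8, a basophil protease, stood at 1.98 to 6.04 TPM in the 4 deficient libraries against 969 to 7890 in the controls.

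Markers of other cells differed between libraries, and the values stand here once for all results below. Summed over 9 monocyte and macrophage genes, of which Lyz2, Ccr2 and Ly6c2 were the most abundant, TPM was 153 and 174 in control pre-Baso, 247 and 215 in deficient pre-Baso, 859 and 323 in control basophils and 779 and 364 in deficient basophils. Summed over 8 neutrophil genes it was 715 to 1150 in pre-Baso, and 2320, 1290, 2040 and 1230 in the basophil libraries in the same order. Summed over 7 eosinophil genes, led by Prg2, it was 15.8 to 97.4 in pre-Baso and 2580, 35.4, 188 and 31.0 in basophils. The first basophil library of each genotype was thus the higher one for all 3 lists. No gene of these 3 lists was at 0 in every library. The 8 dendritic cell genes summed to 1.69 to 3.69 TPM in pre-Baso and 3.11 to 12.2 in basophils, the 7 B and plasma cell genes to 12.2 to 20.2 and 18.0 to 35.2, and the 5 erythroid genes to 13.1 to 47.7 and 51.3 to 69.7. For these lists as well, the first basophil library of each genotype was the higher one. It was the lower one for the basophil markers in both genotypes and for the T and NK cell genes in deficient mice. Mast cell markers summed to at most 3.03 TPM, with Mcpt4 and Mrgprb2 at 0 in every library. The 7 T and NK cell genes summed to 129 to 186 TPM in pre-Baso and 54.0 to 76.6 in basophils, nearly all of it Nkg7, and Cd3e, Cd3g, Ncr1, Klrb1c and Gzma were at or near 0.

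Between pre-Baso and basophils, part of the interferon response genes rose. In control mice 22 of the 47 tested genes (46.8%) rose and none fell, where 12.6% of all 12511 genes rose and 10.0% fell (limma, Benjamini-Hochberg adjusted p under 0.05). Their median log2 change was 0.82, against 0.08 for all genes tested. Of the 47 changes 44 were positive, where 56.5% of all genes had a positive one. In Nfil3-deficient mice 14 of the 47 (29.8%) rose and none fell, where 6.79% of all genes rose and 4.11% fell, and the median log2 change was 0.61 against 0.10. All changes are differences of group means of log2(TPM + 1) with their standard error (SE), which compresses the changes of genes at low TPM. In sorted bulk cells, fewer cells of a type and less RNA per cell cannot be told apart. The marker sums of monocytes, neutrophils and, in 1 library of each genotype, eosinophils given above were higher in basophils as well. The sum of 10 basophil markers was lower there, with Prss34 its largest member, but its members took different courses. In controls Prss34, Mcpt8, Cpa3, Fcer1a, Ms4a2 and Il3ra were lower in both basophil libraries than in both pre-Baso libraries. Il4 (38.1 and 43.4 TPM in control pre-Baso, 99.4 and 103 in control basophils), Hdc and Cd200r3 were higher. The part of all these markers in the changes was not tested.

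Leaving out the first basophil library of both genotypes, a setting chosen after the marker sums were seen, left 5 of 47 genes called in controls, namely Samhd1, Slfn2, Ifitm1, Rtp4 and Isg20, with a median log2 change of 0.67. Of all 12511 genes, 359 were then called higher in controls and 673 lower. In deficient mice the same setting gave a median log2 change of 0.59, and calls ended there both in the list and across nearly all genes.

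**Figure D1:**
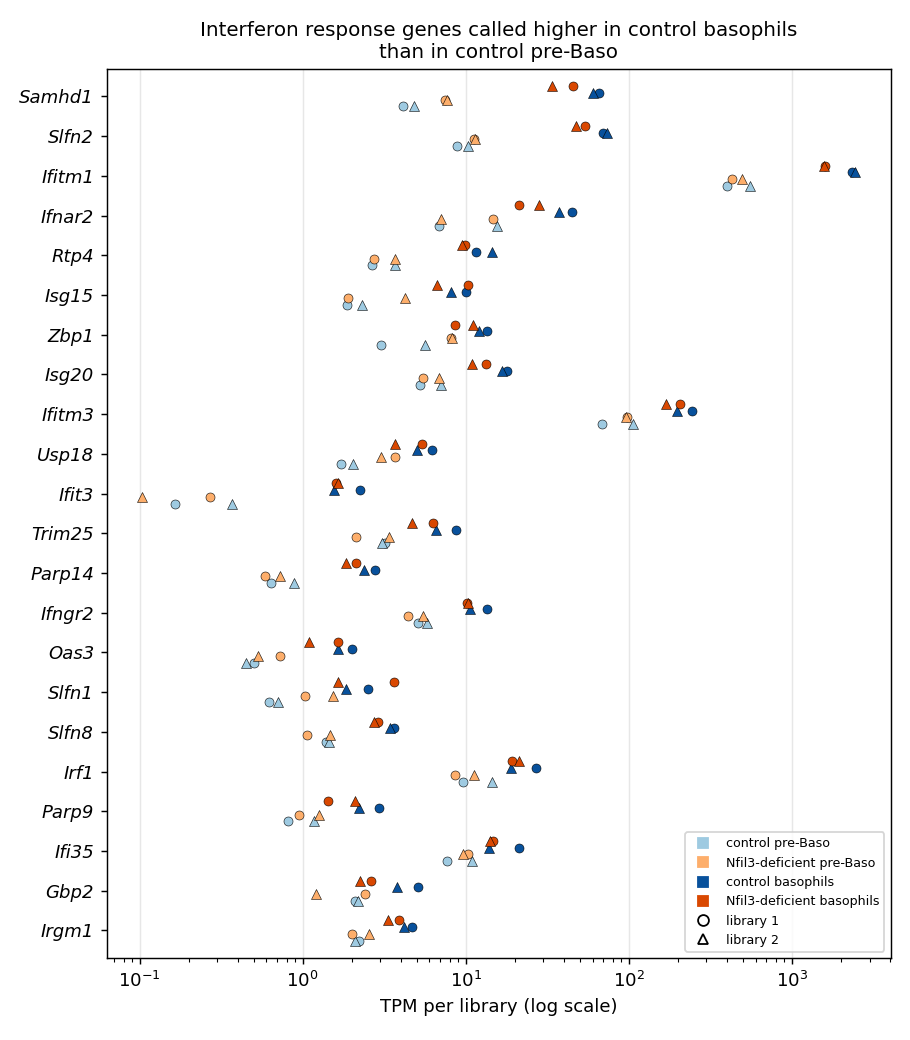
TPM of the 22 genes that rose from pre-Baso to basophils in control mice, on a log axis, with 1 point per library (circles for library 1, triangles for library 2) and colours for the 4 groups. Both control basophil libraries lay above both control pre-Baso libraries for every gene shown. Samhd1, Slfn2, Ifitm1 and Ifit3 stood farthest apart on this axis. Ifit3 is at low TPM, so its change on the log2(TPM + 1) scale of the tests is smaller.

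Samhd1, a deoxynucleotide triphosphatase that lowers the nucleotide pool viruses need, had the largest change of the list. It stood at 4.14 and 4.82 TPM in control pre-Baso and at 65.4 and 60.1 TPM in control basophils. Deficient pre-Baso had 7.44 and 7.66 TPM and deficient basophils 45.6 and 34.0 TPM. The deficient libraries thus lay inside the control range, above control pre-Baso and below control basophils, and no groups overlapped. The log2 change between populations was 3.54 (SE 0.18), or 11.6-fold, in controls (adjusted p 0.000111) and 2.24 (SE 0.18), or 4.73-fold, in deficient mice (adjusted p 0.00175). Samhd1 lies on the minus strand of chr2:157097533-157135265.

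Slfn2, a schlafen protein required for leukocyte quiescence, stood at 8.79 and 10.4 TPM in control pre-Baso and 69.9 and 73.4 TPM in control basophils. Its deficient values were 11.3 and 11.4 TPM in pre-Baso and 53.6 and 47.6 TPM in basophils. It rose by a log2 of 2.78 (SE 0.15, 6.87-fold, adjusted p 0.000111) in controls and 2.06 (SE 0.15, 4.16-fold, adjusted p 0.00146) in deficient mice. The 4 schlafen genes of the list lie within 171 kb of chr11:82951349-83122670 and had very different levels. Slfn8 had 1.39 and 1.45 TPM in control pre-Baso and 3.65 and 3.46 in control basophils, and it rose by a log2 of 0.91 (SE 0.18, adjusted p 0.00898). Slfn1 rose by 0.92 (SE 0.29) with an adjusted p of 0.0496, from 0.619 and 0.708 to 2.51 and 1.84 TPM. Slfn5 did not reach the level needed for testing, with 0.0579 and 0.175 TPM in control pre-Baso and 0.805 and 0.865 TPM in control basophils.

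The Ifitm genes encode small membrane proteins that block the fusion of viruses in endosomes, and 4 of them lie within 63.1 kb of chr7:140954837-141017924. Ifitm1, on the plus strand at chr7:140967221-140969825, was the most abundant gene of the list. It stood at 401 and 558 TPM in control pre-Baso, 432 and 495 in deficient pre-Baso, 2340 and 2440 in control basophils and 1610 and 1580 in deficient basophils. Its log2 change between populations was 2.33 (SE 0.15, 5.04-fold, adjusted p 0.000236) in controls and 1.78 (SE 0.15, 3.44-fold, adjusted p 0.00212) in deficient mice.

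Neighbours of Ifitm1 took other courses. Ifitm3 stood at 68.7 and 107 TPM in control pre-Baso and 245 and 197 TPM in control basophils, a log2 change of 1.35 (SE 0.22, adjusted p 0.00413), and rose by 0.93 (SE 0.22, adjusted p 0.0331) in deficient mice. Ifitm2 had 284 and 359 TPM in control pre-Baso and 263 and 276 TPM in control basophils. Ifitm2 was thus not called and had a change of -0.25 in each genotype (adjusted p 0.245 in controls). Ifitm6 had 7.87 and 9.76 TPM in control pre-Baso against 21.9 and 13.5 TPM in control basophils (0.90, SE 0.33, adjusted p 0.0874). These genes are related copies whose shared reads the quantification could split between them, so their values are uncertain to that extent.

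**Figure D2:**
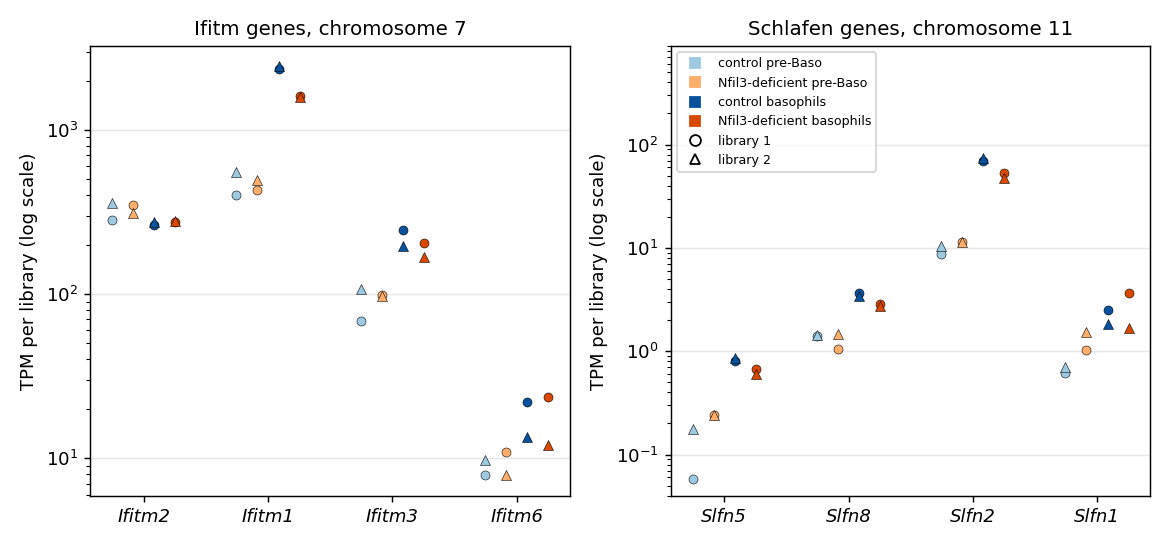
TPM on a log axis of the 4 Ifitm genes of chromosome 7 and the 4 schlafen genes of chromosome 11, in chromosome order, with 1 point per library. Ifitm1 and Slfn2 stand apart by population, whereas Ifitm2 lies between 263 and 359 TPM in all 8 libraries.

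Among the receptor chains, 2 of 4 rose in controls. Ifngr2, the signalling chain of the interferon gamma receptor, stood at 5.08 and 5.78 TPM in control pre-Baso and 13.5 and 10.6 TPM in control basophils (1.01, SE 0.18, adjusted p 0.0063), and at 4.46 and 5.45 against 10.2 and 10.3 TPM in deficient mice (0.93, SE 0.18, adjusted p 0.0187). Ifnar2, the high-affinity chain of the type I receptor, had 6.82 and 15.5 TPM in control pre-Baso and 44.9 and 37.3 TPM in control basophils, a log2 change of 1.88 (SE 0.40, adjusted p 0.0121). Its change in deficient mice was 1.17 (SE 0.40, adjusted p 0.098), with 14.7 and 7.06 TPM in pre-Baso and 21.1 and 28.2 TPM in basophils. Much of the Ifnar2 level was assigned to a transcript that ends before the gene's last exons (ENSMUST00000117836), at 0 and 11.5 TPM in the 2 control pre-Baso libraries and 35.6 and 30.6 TPM in the control basophil libraries. The longest transcript (ENSMUST00000023693) had 6.41 and 3.93 TPM against 8.96 and 6.35 TPM in the same libraries. Replicates therefore differed most in the shorter transcript. Neither Ifnar1 (0.40, SE 0.20, adjusted p 0.176) nor Ifngr1 (0.59, SE 0.22, adjusted p 0.0851) was called in controls.

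All 3 genes of the Isg15 system, in which Isg15 is a ubiquitin-like protein attached to other proteins, rose in controls. Isg15 stood at 1.88 and 2.32 TPM in control pre-Baso and 10.0 and 8.11 TPM in control basophils (1.70, SE 0.31, adjusted p 0.00652). In deficient mice it had 1.90 and 4.24 TPM in pre-Baso and 10.4 and 6.64 TPM in basophils (1.26, SE 0.31, adjusted p 0.0362). Usp18, which removes Isg15 and restrains the type I receptor, rose from 1.71 and 2.05 to 6.26 and 5.02 TPM in controls (1.20, SE 0.21, adjusted p 0.00599). Its deficient values were 3.71 and 3.03 TPM in pre-Baso and 5.43 and 3.71 TPM in basophils. The 2 values of 3.71 TPM are equal only after rounding, with the basophil one slightly higher. Trim25, a ubiquitin ligase that activates the RNA sensor encoded by Ddx58, rose by 1.06 (SE 0.23, adjusted p 0.0128) in controls and had a change of 0.81 (adjusted p 0.0576) in deficient mice.

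Of the sensors of foreign nucleic acid, Zbp1, a receptor for left-handed RNA and DNA that can start cell death, was the only tested one called. It stood at 3.03 and 5.60 TPM in control pre-Baso and 13.6 and 12.1 TPM in control basophils (1.42, SE 0.25, adjusted p 0.0055). Deficient pre-Baso had 8.08 and 8.27 TPM and deficient basophils 8.56 and 11.1 TPM, a change of 0.23 (SE 0.25, adjusted p 0.589). Ddx58, which encodes the RNA sensor RIG-I, had 2.91 and 5.75 TPM in control pre-Baso and 6.80 and 8.47 TPM in control basophils (0.74, adjusted p 0.089). Eif2ak2, the kinase PKR that halts translation on double-stranded RNA, had a log2 change of -0.02 (SE 0.23, adjusted p 0.962), and Ifih1 and Dhx58 were below the level needed for testing.

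Of 4 transcription factors, only Irf1 was called. Irf1, an activator shared by the type I and gamma responses, had 9.62 and 14.5 TPM in control pre-Baso and 26.9 and 18.9 TPM in control basophils (0.88, SE 0.25, adjusted p 0.0352), and it rose by 0.97 (SE 0.25, adjusted p 0.0419) in deficient mice. Irf7, which amplifies the type I response, had 3.58 and 3.43 TPM against 8.37 and 5.73 TPM in controls and 4.09 and 2.89 against 10.2 and 5.81 TPM in deficient mice, with changes of 0.82 (adjusted p 0.0653) and 0.97 (adjusted p 0.0583). Its higher basophil library was the first of each genotype. Stat2, part of the factor that binds interferon response elements, had a control change of 0.35 (adjusted p 0.414), and Sp100, a nuclear body protein, one of 0.63 (adjusted p 0.0708).

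Of 9 antiviral effectors outside the gene families, Samhd1, Rtp4, Isg20 and Ifi35 rose in controls. Rtp4, a zinc finger protein that restrains flavivirus replication, stood at 2.67 and 3.68 TPM in control pre-Baso and 11.6 and 14.5 TPM in control basophils (1.75, SE 0.20, 3.37-fold, adjusted p 0.001). It rose from 2.76 and 3.67 to 9.90 and 9.53 TPM in deficient mice (1.36, SE 0.20, adjusted p 0.00813). Isg20, an RNA exonuclease, had 5.24 and 7.08 TPM in control pre-Baso and 18.0 and 16.7 TPM in control basophils (1.37, SE 0.20, adjusted p 0.00264), and rose by 0.87 (adjusted p 0.0305) in deficient mice. Ifi35 rose by 0.84 (SE 0.23, adjusted p 0.0325) in controls. Ifi27l2a, of the Ifi27 family, had 7.96 and 18.3 TPM in control pre-Baso and 80.6 and 25.2 TPM in control basophils, and 18.9 and 30.3 against 93.4 and 35.0 TPM in deficient mice. Its replicates differed too widely for a call (1.82, SE 0.63, adjusted p 0.0708), and the high library of each pair was again the first. This order also held in both genotypes for Isg15, Usp18 and Ifitm3 among others, and the reverse for Ddx58, Sp100, Trim30a and Adar among others. Bst2, a tether that holds budding viruses, lay between 25.3 and 34.2 TPM in all 8 libraries and was not called, and neither were Adar, Trim30a and Xaf1.

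**Figure D3:**
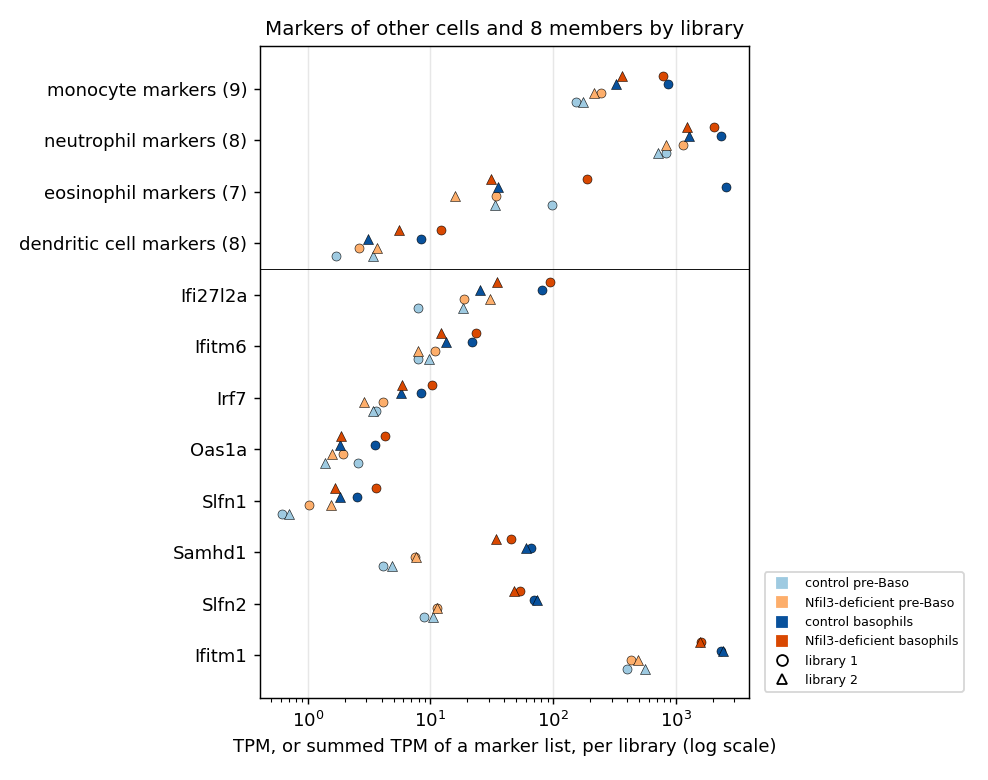
Summed TPM of 4 marker lists of other cell types and TPM of 8 listed genes, by library, on a log axis. The first basophil libraries (circles) stand above the second (triangles) for the marker lists and for Ifi27l2a, Ifitm6, Irf7, Oas1a and Slfn1, and for Samhd1 as well. For Samhd1, Slfn2 and Ifitm1 every basophil library lies above every pre-Baso library. The 8 genes were picked for display, and the order of the libraries was not counted over the list or over all genes.

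Some classical antiviral genes were listed at low levels in both populations. The 11 genes below the level needed for testing were Ifih1, Dhx58, Oas2, Oasl1, Ifit1, Ifit2, Slfn5, Mx1, Mx2, Gbp3 and Ifi44. Mx1, a GTPase that traps viral nucleocapsids, had at most 0.385 TPM and Mx2 at most 0.215 TPM in any library, and Ifi44 was listed at 0 in all 8. A listed 0 need not mean absence, since 4 of 580 protein-coding genes with a mean of at least 50 TPM are also at 0 in a library. Ifit1, which binds RNA without a host cap, had 0.155 and 0.177 TPM in control pre-Baso and 0.472 and 1.13 TPM in control basophils. Ifit2, its relative, had higher values in pre-Baso, with 0.371 and 0.533 TPM against 0.133 and 0.218 TPM in control basophils. Of the Ifit family only Ifit3 was tested, and it rose from 0.165 and 0.368 to 2.24 and 1.55 TPM in controls (1.19, SE 0.23, adjusted p 0.0082) and from 0.269 and 0.104 to 1.60 and 1.64 TPM in deficient mice (1.15, SE 0.23, adjusted p 0.0195). Ifit3, Oas3, Oasl2 and Parp14 passed the level filter only through basophil libraries, the group where they are high. Ifit3, Oas3 and Parp14 are among the 22 that rose in controls, and Ifit3 and Parp14 among the 14 in deficient mice, so these calls follow in part from the filter and support nothing about the list.

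Oligoadenylate synthetases make the second messenger that activates the RNA-cutting enzyme RNase L, and 1 of the 3 tested rose. Oas3 had 0.505 and 0.452 TPM in control pre-Baso and 2.01 and 1.64 TPM in control basophils (0.93, SE 0.22, adjusted p 0.0175). Oas1a, its neighbour within the 177 kb of chr5:120730333-120907521, had 2.56 and 1.38 TPM in control pre-Baso and 3.53 and 1.82 TPM in control basophils, with overlapping libraries (0.30, SE 0.35, adjusted p 0.582). Of the interferon-induced GTPases, which attack vacuoles that hold microbes, Gbp2 (0.79, SE 0.24, adjusted p 0.0484) and Irgm1 (0.78, SE 0.18, adjusted p 0.0155) rose in controls, and Gbp7 (adjusted p 0.0526) and Igtp (adjusted p 0.0725) lay near the threshold. None of the 4 was called in deficient mice. Parp9 and Dtx3l form a ubiquitin ligase complex, and of that group Parp14 rose in both genotypes, by 1.02 (SE 0.19, adjusted p 0.00811) and 0.85 (SE 0.19, adjusted p 0.031), with the limit of the level filter given above. Parp9 rose in controls (0.84, adjusted p 0.0291) and Dtx3l in deficient mice (0.75, adjusted p 0.0365).

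Genes of antigen processing, which load peptides on class I molecules, had no call among 6 tested genes in controls, where their median log2 change was 0.13, the lowest of the roles with more than 1 tested gene. In deficient mice 1 of 6 was called and the median was 0.35. B2m, the class I light chain, stood at 356 and 334 TPM in control pre-Baso and 347 and 290 TPM in control basophils (-0.12, SE 0.13, adjusted p 0.526). Psmb8, a subunit of the immunoproteasome, had 87.1 and 105 against 116 and 108 TPM (0.23, adjusted p 0.274). In deficient mice Tap2, a subunit of the peptide pump of the endoplasmic reticulum, rose from 13.1 and 14.3 to 27.1 and 34.9 TPM (1.12, SE 0.21, adjusted p 0.0177). Its control values were 18.9 and 25.2 TPM in pre-Baso and 35.7 and 26.9 TPM in basophils (0.49, SE 0.21, adjusted p 0.141). Psmb9, Tap1, Psmb8, Tap2 and Tapbp lie within 300 kb of chr17:33915899-34216321, and Tap2 was the only gene of this cluster called in either genotype.

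The change between populations was compared between genotypes through its difference, which equals the genotype effect in basophils minus that in pre-Baso. Both genotypes called 12 genes, controls alone 10 and deficient mice alone 2, Tap2 and Dtx3l. The log2 change was smaller in deficient mice for 21 of the 22 genes called in controls and for 34 of the 47 tested. Of all 12511 genes, 53.3% had a larger change in deficient mice. Choosing genes by their call in controls favours a larger value there. The 2 changes rest on different libraries. No tested gene of the list passed the test of the difference, in which 0% of all 12511 genes were called. An unadjusted p under 0.05 belonged to 5 of the 47 and to 689 of all genes. Samhd1 had a difference of -1.30 (SE 0.26, unadjusted p 0.000823, adjusted p 0.668), Zbp1 of -1.19 (SE 0.35, adjusted p 0.847), Usp18 of -0.86 (SE 0.30, adjusted p 0.897) and Slfn2 of -0.72 (SE 0.22, adjusted p 0.858). The 95% interval for Samhd1 ran from -1.88 to -0.72.

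**Figure D4:**
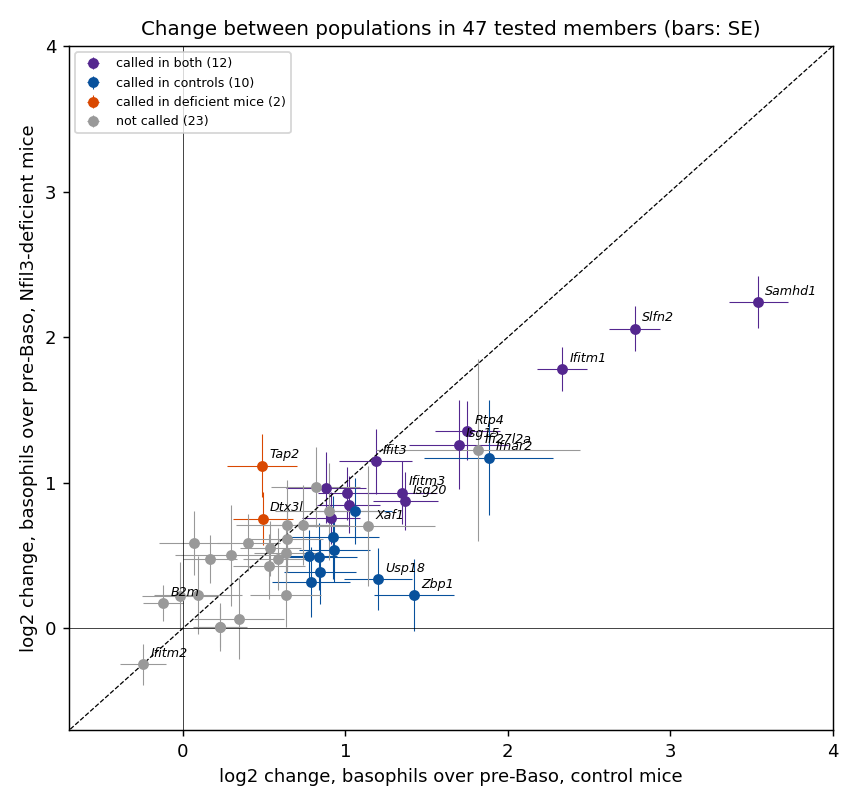
Log2 change from pre-Baso to basophils of each of the 47 tested genes in control mice (x axis) and in Nfil3-deficient mice (y axis), with bars for the SE and a dashed line of equal change. Samhd1, Slfn2 and Ifitm1 lie farthest out, and 34 of the 47 points lie below the line, without any gene passing the test of that difference. Of all tested genes, not drawn here, 53.3% had a larger change in deficient mice.

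Loss of Nfil3 within a population was compared directly. In pre-Baso 0 of the 47 genes were called, where 0.0639% of all genes were called. An unadjusted p under 0.05 (limma) belonged to 7 of the 47 and to 548 of all 12511 genes. The median log2 difference, deficient minus control, was -0.03, against -0.04 for all genes. Deficient libraries lay all above the control libraries for 7 of the 47 and all below for 8, where 11.2% and 19.3% of all genes did so. The smallest p belonged to Samhd1 (0.64, SE 0.18, adjusted p 0.922) and Zbp1 (0.83, SE 0.25, adjusted p 0.991), both with higher values in deficient pre-Baso. Usp18 differed by 0.60 (SE 0.21, adjusted p 1).

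No antigen processing gene passed the test in pre-Baso, and 4 of the 6 had both deficient libraries below both controls, where 19.3% of all genes did so. B2m stood at 356 and 334 TPM in control and 255 and 268 TPM in deficient pre-Baso (-0.40, SE 0.13, adjusted p 1). Tapbp, which bridges the peptide pump to class I molecules, had 39.5 and 38.8 against 26.1 and 29.8 TPM (-0.48, SE 0.17, adjusted p 1), and Tap2 had 18.9 and 25.2 against 13.1 and 14.3 TPM (-0.64, SE 0.21, adjusted p 1). Psmb9, a subunit of the immunoproteasome, was the fourth, with 18.6 and 23.6 against 15.6 and 14.0 TPM. Libraries overlapped for Tap1 (-0.11, SE 0.22) and for Psmb8 (0.02, SE 0.14). In basophils B2m had 347 and 290 against 291 and 299 TPM, with overlap.

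In basophils 0 of the 47 genes were called, where 0.0560% of all genes were called. An unadjusted p under 0.05 belonged to 5 of the 47 and to 1065 of all 12511 genes. The median log2 difference was -0.23, from -0.34 without the second to -0.13 without the first control basophil library, against -0.01 for all genes. Of the 47 differences 7 were positive, where 47.9% of all genes had a positive one, and 16 were without the first basophil library of both genotypes. Deficient libraries lay all below the controls for 19 of the 47 and all above for 2, where 21.4% and 17.2% of all genes did so. These basophil comparisons share the control basophil libraries with the change between populations in controls. Ifitm1 (-0.59, SE 0.15, adjusted p 0.312), Samhd1 (-0.66, SE 0.18, adjusted p 0.326), Slfn2 (-0.50, SE 0.15, adjusted p 0.377), Gbp2 (-0.66, SE 0.24, adjusted p 0.485) and Isg20 (-0.49, SE 0.20, adjusted p 0.552) had the smallest p. Intervals show how much could be missed: the 95% interval of Ifitm1 ran from -0.94 to -0.23 and that of Isg15 from -0.80 to 0.60. Gbp2, a guanylate-binding protein, had 5.09 and 3.81 TPM in control and 2.63 and 2.24 TPM in deficient basophils. Among the tested genes, Samhd1, Slfn2 and Zbp1 were higher in both deficient than in both control libraries of pre-Baso and lower in both of basophils. Slfn5, too low to be tested, had the same order. The share of all genes with this order was not counted, so nothing is drawn from it.

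Averaged over both populations, 0 of the 47 genes were called, where 0.0879% of all genes were called. An unadjusted p under 0.05 belonged to 5 of the 47 and to 931 of all 12511 genes. The median difference was -0.16, against -0.02 for all genes. B2m at -0.25 (SE 0.09, adjusted p 0.583) and Ifitm1 at -0.31 (SE 0.11, adjusted p 0.583) had the smallest p. Leaving out the first basophil library of both genotypes gave a median of -0.14 in basophils.

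**Figure D5:**
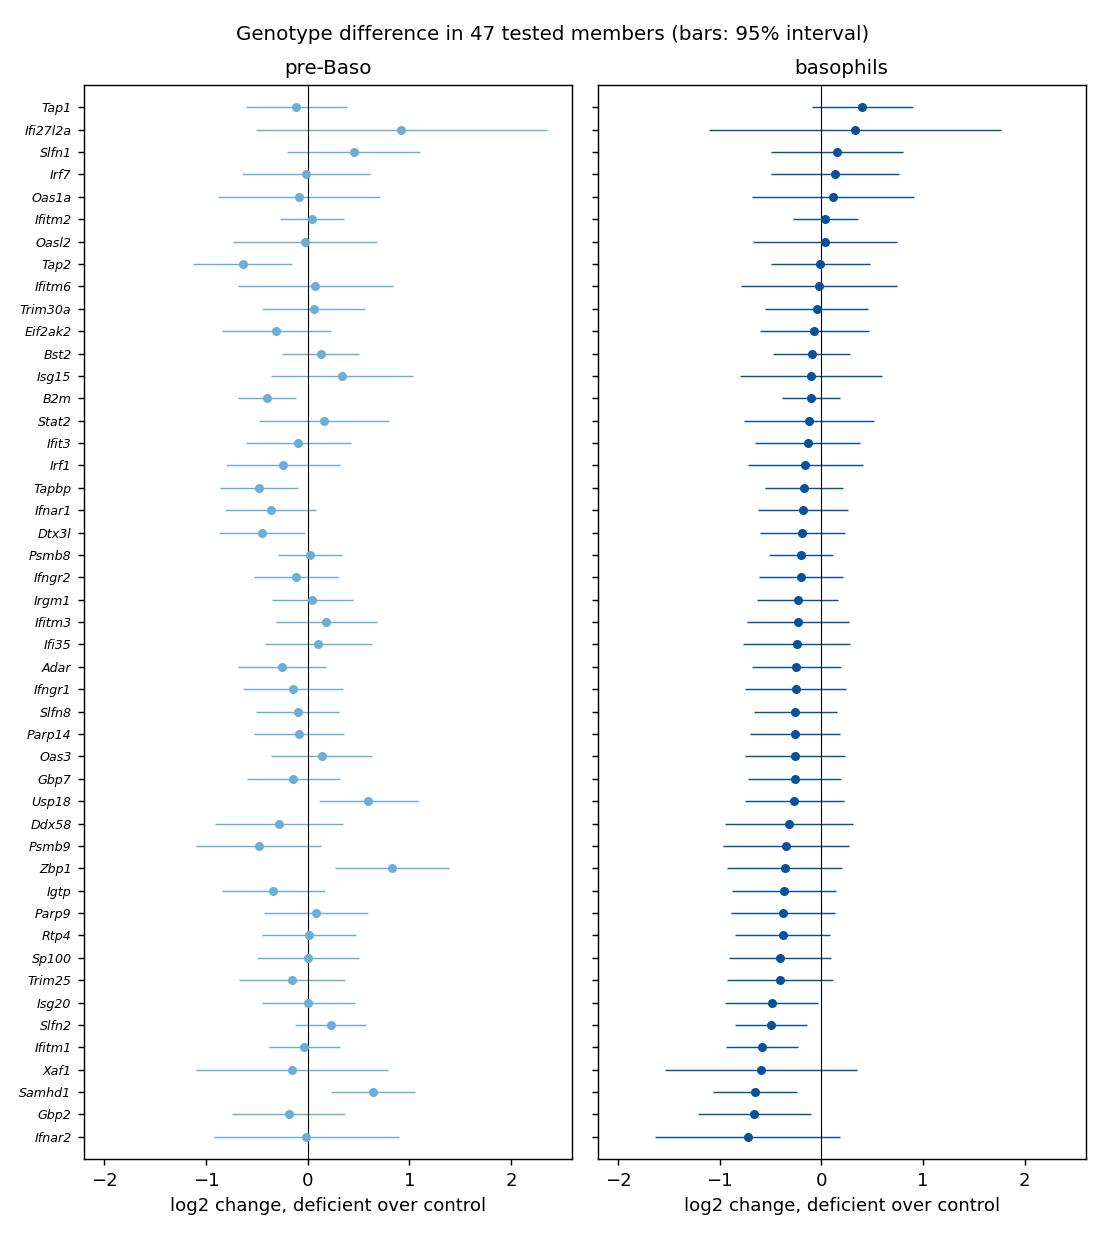
Log2 difference between Nfil3-deficient and control libraries for each of the 47 tested genes, in pre-Baso (left) and in basophils (right), with 95% intervals and genes in the order of the basophil value. Values in basophils lie above 0 for 7 of the 47 genes, and none of the 47 passed the test in either population.

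Libraries did not overlap between populations for most of the list. In controls 40 of the 47 tested genes and 46 of the 58 found had both basophil libraries above both pre-Baso libraries, where 36.4% of all tested genes did so. In deficient mice this was 38 of 47 and 43 of 58, where 36.6% of all tested genes did so. These shares are of tested genes and belong beside the 47 only, since none was counted over all genes found. Oas3, Oasl2, Ifit3 and Parp14 are in these counts and passed the level filter only through basophil libraries, so they add no support. The TPM summed over all 58 genes was 1440 and 1780 in control pre-Baso, 1490 and 1550 in deficient pre-Baso, 4010 and 3860 in control basophils and 3040 and 2900 in deficient basophils. Ifitm1 made up the larger share of each basophil sum.

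A further 106 genes of the interferon pathway, chosen as upstream signalling parts and targets beyond the list, gave 105 matches, 73 of them tested. In controls 28 of the 73 (38.4%) rose and 2 fell, where 12.6% and 10.0% of all genes did, and the median log2 change was 0.58 against 0.08 for all genes. In deficient mice 12 (16.4%) rose and none fell, where 6.79% and 4.11% of all genes did, with a median of 0.46 against 0.10. Rsad2, Irf5, Slfn4 and Socs3 are among the 28, and Socs3 is among the 12. They passed the level filter only through basophil libraries, where they are high. Their calls follow in part from the filter and add no support. No gene of them was called in a genotype comparison. Of the signalling chain, the Jak family kinase Jak2 had 13.1 and 17.0 TPM in control pre-Baso and 36.7 and 36.9 TPM in control basophils (1.25, SE 0.18, adjusted p 0.00276). Jak1 rose by 0.73 (adjusted p 0.0253) and Irf9 by 1.04 (adjusted p 0.0121) in controls.

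H2-D1, a class I heavy chain that pairs with the light chain B2m, had 146 and 157 TPM in control pre-Baso and 316 and 254 TPM in control basophils (0.90, SE 0.14, adjusted p 0.00367), and it rose by 0.60 (adjusted p 0.0338) in deficient mice. H2-K1, another heavy chain, rose by 0.61 (adjusted p 0.028) in controls and 0.69 (adjusted p 0.0316) in deficient mice. The nonclassical chain H2-T23 rose by 1.31 (adjusted p 0.00269) in controls and had a change of 0.69 (adjusted p 0.0563) in deficient mice. Uba7, the enzyme that activates Isg15, rose in both genotypes by 1.03 (adjusted p 0.00244) and 1.23 (adjusted p 0.0047). Sting1, the adaptor of cytosolic DNA sensing, rose in controls from 5.88 and 5.55 to 13.9 and 16.2 TPM (1.25, SE 0.20, adjusted p 0.00355). Cgas, which makes the messenger that Sting1 binds, fell in controls from 3.14 and 4.29 to 1.46 and 1.09 TPM (-1.05, SE 0.24, adjusted p 0.0166). Ly6e, a membrane protein that restricts coronavirus entry and the most abundant of these genes, fell from 716 and 764 to 551 and 521 TPM (-0.46, SE 0.12, adjusted p 0.023) in controls. Rsad2, which encodes viperin, rose from 0.195 and 0.210 to 1.61 and 1.31 TPM in controls (1.03, SE 0.22, adjusted p 0.0122), with the limit of the level filter given above.

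The calls differed in how they held when 1 library was left out. In controls Samhd1, Slfn2, Ifitm1, Ifitm3, Rtp4, Isg20, Zbp1, Usp18 and Ifngr2 remained called without any single library. The other 13 ended without the first library of control pre-Baso, which left 9 of 47 (564 of all genes were then called higher), and without the first control basophil library 10 ended, among them Irf1, Ifit3, Trim25 and Gbp2, which left 12 (690 of all genes called higher). In deficient mice Samhd1, Slfn2 and Ifitm1 remained called without any single library, and the number called was 3 without the first library of either deficient group and 6 without the second of either. The number over all genes fell as well: 19 genes were called higher without the first deficient pre-Baso library and 151 without the first deficient basophil library, and 396 and 259 without the second ones, where 849 were called with all 8 libraries.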

How the data were processed

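RNA was extracted with a TRIZol reagent and libraries were made with a SMARTER kit for mRNA, per the labels' protocols. Per the submitters' processing notes the authors used HISAT2 and mm10. Per the file headers, StringTie 2.1.4 quantified only the transcripts of Ensembl release 101. No strand option is named there, so antisense partners cannot be told apart. The deposited tables hold TPM, FPKM and coverage per transcript and no read counts. Depth is given as coverage times length, 272 to 398 megabases per library.

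Gene TPM was summed over transcripts by gene identifier, and the listed names were then matched to identifiers. limma 3.58.1 in R 4.3.3 fitted log2(TPM + 1) of the 12511 genes that reached a TPM of 1 in 2 or more libraries, with 1 mean per group over 8 libraries (4 residual degrees of freedom) and variance moderated along its trend. Benjamini-Hochberg adjustment ran over all tested genes in each of 6 contrasts, with calls made below an adjusted p of 0.05. "Rose" and "fell" refer to calls. Adjusted p-values are limma's. The fit was tested on simulated data. The design text calls the replicates biological duplicates, so n is 2 libraries a group. The labels do not say that equal replicate numbers mark a shared litter or day, so libraries were not paired. Deviations of same-numbered libraries from their group means correlated at -0.05 to 0.20 over all genes and -0.17 to 0.48 over the listed genes. Both highest values were those of control with deficient basophils, so a shared part there remains possible.

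The genes, the lists and the rule for naming genes were chosen with earlier results of these data known. The rule allows any listed gene, Nfil3, other pathway genes that were called or among the 6 most abundant, and the most abundant markers of other cells. The basophil markers, Cd3e, Cd3g, Ncr1, Klrb1c, Gzma, Mcpt4 and Mrgprb2 fall outside it and were named after their values were seen. Alternatives were other scalings, FPKM, pseudocounts, filters, moderation, the compared groups alone, a replicate block and leaving out libraries. Motifs were searched in RefSeq promoters (GRCm38.p6), whose starts can differ from those of Ensembl. Proteins were not analysed here.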

Additional observations from a re-analysis of the deposited data

How the results depend on the processing

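In the change between populations in controls, the median log2 change of the listed genes was 0.98 with TPM rescaled over protein-coding genes, 0.97 with a pseudocount of 0.1 and 0.40 with one of 5, and 0.63 to 0.99 with single libraries left out, against 0.82 as reported. The number that rose was 9 to 22 with single libraries left out and 5 without the first basophil library of both genotypes. In Nfil3-deficient mice the median was 0.87, 0.85 and 0.33 in the same 3 settings, against 0.61. The number that rose there was 4 with no filter on low values, 7 with only the compared groups fitted, 3 to 14 with single libraries left out and 0 without the first basophil library of both genotypes, against 14. A lone remaining library was assumed to vary like the other groups. The fit with a replicate block gave 24 and 12 genes that rose: Irf7, Sp100 and Ddx58 were gained and Slfn1 lost in controls, and Irf7 was gained and Ifitm3, Irf1 and Isg15 lost in deficient mice. Of the 22 genes that rose in controls, 9 held in each alternative planned at the outset, as did 3 of the 14 in deficient mice, and none changed sign. In the genotype comparisons and the difference between them, no listed gene was called in any setting, though the median in pre-Baso ran from -0.16 to 0.11 with single libraries left out. Centring each library on its median gave 21 and 14 genes that rose, and it lowered the higher calls among all genes in deficient mice from 62.3% to 44.2% (806 higher and 1019 lower) and the median of all genes from 0.10 to -0.03. In controls the higher share of calls was 55.6% as reported and 49.0% centred. Fitting only the compared groups was not run for the mean and the difference, which need all 4 groups. The cause of these shifts was not tested. With 2 libraries a group, no count and no read depth per gene, small changes and genes near 1 TPM could not be resolved.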
